A study of Mus musculus with 6 samples.

Results

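The receptors through which basophils sense interleukin-33 (IL-33) and IL-18, and their relatives, were examined in bone marrow-derived basophils (BMBAs) given IL-3 or PBS. The members were 9 genes of 37043 gene symbols in the count table, chosen by symbol: Il1rl1, Il1rap, Il18r1, Il18rap, Il1r1, Il1r2, Il1rl2, Sigirr and the receptor antagonist gene Il1rn. BMBAs are basophils grown from mouse bone marrow. The marrow came from young adult C57BL/6J wild-type mice and was kept in culture for 7 days at 0.3 ng/mL of a cytokine before CD49b-positive cells were enriched on beads. The methods of the study name that cytokine as IL-3. In the IL-3 group (3 libraries), BMBAs then received IL-3 at 10 ng/mL for 6 h, and in the PBS group (3 libraries) they received PBS instead. Both groups had thus met IL-3 during culture, and the sources used here do not say whether the PBS group still had some. The replicates were separate cultures according to the study, so the p-values measure the spread between cultures. The sources used here do not say whether those cultures came from different mice.

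IL-1 family receptors work in pairs. A ligand-binding chain (ST2, encoded by Il1rl1, for IL-33; IL-18Rα, encoded by Il18r1, for IL-18; IL1R1, encoded by Il1r1, for IL-1) recruits a signalling partner, and the joined intracellular domains call in MyD88 and IRAK kinases and turn on NF-kB. The accessory chain encoded by Il1rap is shared by the receptors for IL-33, IL-1 and IL-36, whereas IL-18 has an accessory chain of its own, encoded by Il18rap. Basophils, like mast cells and type 2 innate lymphoid cells (ILC2s), respond to IL-33 through ST2 by making type 2 cytokines, and they also respond to IL-18.

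Library totals ranged from 10537540 to 13999287 counts, so that 3 counts, the limit that a count of 0 allows, corresponded to between 0.233 and 0.296 CPM depending on the library. This limit covers counting error only. CPM are counts scaled to a common library size, here with edgeR's TMM factors (trimmed mean of M values), which correct for composition. Pearson's r of log2 CPM across the genes tested was 0.983 to 0.986 within a group and 0.949 to 0.954 between groups, as a description across genes. Over all genes tested, 18% were called higher and 20.2% lower in the IL-3 group, the background for the marker counts given here and further on. Of 9 basophil markers, 7 were higher and 1 lower (77.8% and 11.1%), with a summed level of 10971 to 12223 CPM in PBS and 17313 to 17575 CPM in IL-3 libraries, among them the basophil protease gene Mcpt8 (3066 CPM in PBS libraries, 5895 CPM in IL-3 libraries). The basophil marker called lower was the IgE receptor gene Fcer1a (289 CPM in PBS libraries, 204 CPM in IL-3 libraries). The protease gene Prss34 was not called (5615 CPM in PBS libraries, 5661 CPM in IL-3 libraries). Markers of other cell types were also detected. The 9 monocyte and macrophage markers summed to 11870 to 12809 CPM in PBS and to 6171 to 6792 CPM in IL-3 libraries (8 lower and 1 higher, or 88.9% and 11.1%), most of it from the lysozyme gene Lyz2. In such bulk libraries, fewer cells of a type and less RNA per cell cannot be told apart.

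The transcript for the ligand-binding chain of the IL-33 receptor was higher in the IL-3 libraries, and the transcript for its accessory chain was lower. All 9 members passed the low-count filter. Calls rest on the quasi-likelihood test of edgeR, with p-values adjusted after Benjamini-Hochberg over the 16675 genes tested and a threshold of 0.05. Il1rl1 and Il18r1 were called higher, Il1rap and Sigirr were called lower, and the other 5 were not called. This is 4 of 9 members (44.4%) beside 38.2% of all genes tested, with 2 of 9 in each direction beside 18% higher and 20.2% lower. In 4 of 9 members the groups did not overlap, compared with 48.2% of all genes tested. Thus the share of members called was close to the background, and their median log2 fold change was 0.04 compared with -0.0033 over all genes. Among the members, Il1rl1 had the largest change and the smallest adjusted p.

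**Figure D1:**
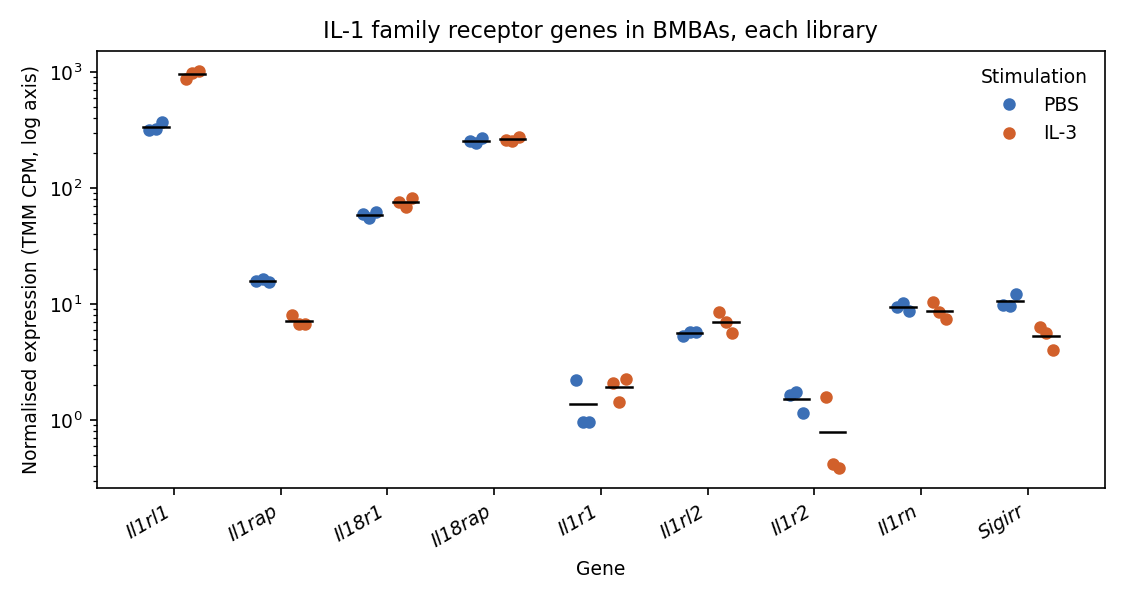
Normalised expression (TMM-scaled CPM, log axis) of the 9 genes in each library, with PBS in blue, IL-3 in orange and bars for the group means. The Il1rl1 points lie between 316 and 367 CPM without IL-3 and between 867 and 1026 CPM with it, whereas Il18rap stays between 243 and 272 CPM in both groups.

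Il1rl1 (ENSMUSG00000026069) lies on chromosome 1 at 40429570 to 40465415 on the plus strand (GRCm38, GENCODE M21). The gene has a distal promoter known to serve mast cells and basophils, a proximal one known from fibroblasts, and products that include membrane-bound ST2 and a soluble decoy. RefSeq promoter windows of 300 bases (250 before and 50 after a start, GRCm38.p6) were found for 8 of the 9 members, 14 windows in all. The windows printed are those of the gene with the strongest rise (Il1rl1), of its neighbour that also rose (Il18r1, 1 of its 3 windows, chosen because it holds matches) and of the partner chain that fell (Il1rap). They were searched on both strands for GATAA, the core bound by GATA factors such as GATA2 of basophils, and for TTCNNNGAA, the core bound by STAT factors such as the STAT5 that IL-3 activates. Capitals mark matches, with TTATC for GATAA on the minus strand. The Il1rl1 windows are chr1:40429320-40429619 and chr1:40439379-40439678, the Il18r1 window is chr1:40465756-40466055 and the Il1rap window is chr16:26581455-26581754, all on the plus strand.

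Il1rl1 upstream start: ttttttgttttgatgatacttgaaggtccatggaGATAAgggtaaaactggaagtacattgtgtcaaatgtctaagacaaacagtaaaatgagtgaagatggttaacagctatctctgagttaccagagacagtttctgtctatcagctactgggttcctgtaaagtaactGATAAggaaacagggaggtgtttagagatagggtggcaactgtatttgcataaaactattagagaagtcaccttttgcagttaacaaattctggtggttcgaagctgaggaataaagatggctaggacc
Il1rl1 downstream start: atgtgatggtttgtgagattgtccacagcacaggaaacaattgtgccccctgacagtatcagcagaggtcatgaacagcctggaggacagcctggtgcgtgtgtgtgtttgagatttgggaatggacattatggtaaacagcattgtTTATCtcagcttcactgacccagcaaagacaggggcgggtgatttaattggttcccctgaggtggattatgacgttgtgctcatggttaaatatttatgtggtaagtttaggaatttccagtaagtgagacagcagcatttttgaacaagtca
Il18r1 most downstream start: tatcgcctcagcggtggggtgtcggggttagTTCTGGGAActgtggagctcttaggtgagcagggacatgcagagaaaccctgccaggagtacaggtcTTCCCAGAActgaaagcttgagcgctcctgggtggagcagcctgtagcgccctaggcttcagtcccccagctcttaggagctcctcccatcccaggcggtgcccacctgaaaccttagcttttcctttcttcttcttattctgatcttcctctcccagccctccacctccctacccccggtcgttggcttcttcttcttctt
Il1rap: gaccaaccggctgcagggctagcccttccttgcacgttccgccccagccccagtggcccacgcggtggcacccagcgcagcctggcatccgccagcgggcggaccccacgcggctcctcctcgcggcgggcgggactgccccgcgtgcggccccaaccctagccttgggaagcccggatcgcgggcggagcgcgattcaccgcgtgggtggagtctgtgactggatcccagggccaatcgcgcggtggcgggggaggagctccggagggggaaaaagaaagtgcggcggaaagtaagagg

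The upstream Il1rl1 window held 2 matches to GATAA and the downstream window 1, and neither held TTCNNNGAA. The printed Il18r1 window held 2 matches to TTCNNNGAA and none to GATAA, the other 2 Il18r1 windows held no match to either, and the Il1rap window held neither. None of the printed windows held both motifs, so no matches to different motifs overlapped. Of 32851 promoter windows of the same length, 25.4% held GATAA and 8.30% held TTCNNNGAA. Among the other members, the Il18rap window held 1 GATAA, the Il1r2 window held 1 match to each motif, and the windows of Il1r1, Il1rl2 and Il1rn held none. These are matches of letters only.

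Il1rl1 had 3867, 3699 and 4167 counts in PBS replicates 1 to 3 and 8780, 11724 and 13233 counts in IL-3 replicates 1 to 3. Normalised, this was 316, 324 and 367 CPM without IL-3 and 867, 976 and 1026 CPM in IL-3. The lowest IL-3 library was well above the highest PBS library. The mean rose from 336 ± 27.3 CPM (SD, n = 3) to 957 ± 81.6 CPM (SD, n = 3). The log2 fold change was 1.51 with a standard error (SE) of 0.0678, or 2.85-fold (edgeR adjusted p = 5.05e-11). The 95% confidence interval of the log2 fold change was 1.37 to 1.65. Il1rl1 ranked 327 from the top by log2 fold change among the genes tested. The counts are sums over the 5 annotated transcripts, so membrane-bound and soluble ST2 and the distal and proximal promoters cannot be told apart.

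Il1rl1 is also expressed by mast cells and ILC2s, whose markers moved in different directions. The 7 mast cell markers summed to 478 to 523 CPM in PBS and 1987 to 2331 CPM in IL-3 libraries, with 4 higher (66.7%) and 0 lower of 6 tested. The called markers were the chymase gene Cma1 (95.3 ± 6.5 to 236 ± 15.0 CPM, 2.48-fold), the tryptase gene Tpsb2 (178 ± 11.1 to 368 ± 37.3 CPM, 2.06-fold), the receptor gene Kit (73.9 ± 7.53 to 110 ± 3.03 CPM, 1.49-fold) and the granzyme gene Gzmb (156 ± 8.90 to 1441 ± 146 CPM, 9.26-fold; SD, n = 3 each). The other tested markers of this list, Mcpt4 and Tpsab1, were not called. The 6 ILC2 markers summed to 289 to 311 CPM in PBS and 145 to 155 CPM in IL-3 libraries, with 1 higher and 2 lower of 5 tested (20% and 40%). Of these, Il7r, the IL-7 receptor chain, made up most of the sum, and the defining ILC2 factor Gata3 stood at 0.972 CPM in PBS libraries and 0.881 CPM in IL-3 libraries. The marker of this list that rose was Areg, which encodes the growth factor amphiregulin (1.08 ± 0.471 to 7.43 ± 3.35 CPM, SD, n = 3 each; log2 fold change 2.76, edgeR adjusted p = 1.75e-05). Basophil markers moved as well, with 7 higher and 1 lower of 9 tested. Among the 7, the rise went from 1.31-fold for Il3ra to 2.74-fold for Hdc, beside 2.85-fold for Il1rl1. Fcer1a stood at 0.706-fold, and Prss34 was not called. The part of any of these markers in the Il1rl1 result was not tested.

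Il1rap (ENSMUSG00000022514, chromosome 16, 26581704 to 26730117, plus strand) encodes the accessory chain that ST2 needs to signal. It had 193, 186 and 175 counts in the PBS libraries and 81, 80 and 86 counts in the IL-3 libraries. At 15.8, 16.3 and 15.4 CPM without IL-3 and 8.0, 6.66 and 6.67 CPM in IL-3, the groups were far apart and the replicates close. The mean fell from 15.8 ± 0.448 to 7.11 ± 0.768 CPM (SD, n = 3 each). The log2 fold change was -1.16 (SE 0.137, 95% interval -1.45 to -0.87, edgeR adjusted p = 5.06e-06), so that the PBS level was 2.24-fold that of IL-3. A non-coding gene on the other strand, Gm20319, overlaps 552 exonic bases of Il1rap (4.86% of its exons). Gm20319 had at most 2 counts in any library. Reads were accepted by the authors in 1 orientation only, which separates the 2 genes in that stretch if the library preparation keeps strand, and the sources used here do not say whether it does.

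The transcripts of the IL-33 receptor chains moved in opposite directions. Per kilobase of each gene's longest coding transcript, Il1rl1 stood at 17.1, 17 and 20.3 times the level of Il1rap in the PBS libraries and at 92.4, 125 and 131 times in the IL-3 libraries. The ratio does not depend on the scaling of the libraries, since both genes are read in the same one. Its mean went from 18.1 ± 1.90 to 116 ± 20.8 (SD, n = 3 each), a difference of 2.67 on the log2 scale. The groups did not overlap (exact permutation test, two-sided, p = 0.1, the smallest that 3 against 3 can give; the 4 ratios tested each gave this value, and adjustment over them leaves it at 0.1). In bulk libraries both transcripts of a ratio need not come from the same cells, and this was not tested. A p of 0.1 is above any usual threshold, so the ratios are given as descriptions. All 4 were chosen after the values of the members had been seen, and their levels, though not their changes, depend on the transcript lengths used. Per kilobase of all exons joined, a length added after the data were seen, the mean ratio of Il1rl1 to Il1rap was 35.0 ± 3.66 in PBS and 225 ± 40.2 in IL-3 libraries (SD, n = 3 each).

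**Figure D2:**
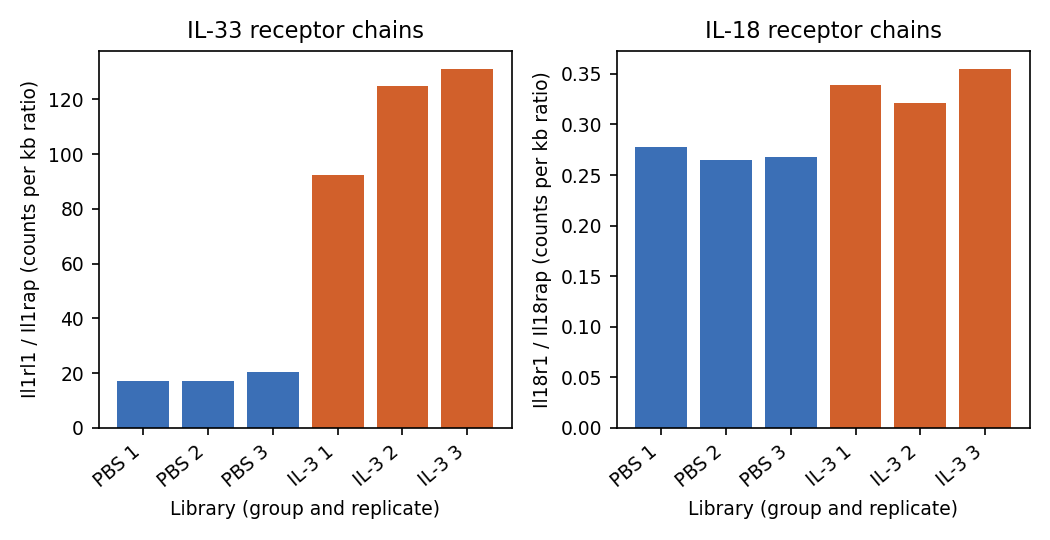
Ratio of ligand-binding to accessory chain (counts per kb, linear axes from 0) in each library for the IL-33 receptor (left) and the IL-18 receptor (right), with PBS in blue and IL-3 in orange. The left ratio rises from between 17 and 20.3 to between 92.4 and 131, and the right from between 0.265 and 0.278 to between 0.321 and 0.355. Both chains are counted over all cells of a bulk library.

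For the IL-18 receptor, the ligand-binding chain rose slightly and the accessory chain was not called. Il18r1 (ENSMUSG00000026070, chromosome 1, 40465552 to 40500854, plus strand), the ligand-binding chain, had 727, 625 and 700 counts in PBS and 762, 830 and 1061 counts in IL-3 libraries. Normalised, these were 59.5, 54.8 and 61.7 CPM without IL-3 and 75.2, 69.1 and 82.3 CPM with it, with every IL-3 library above every PBS library. The mean rose 1.29-fold, from 58.6 ± 3.51 to 75.5 ± 6.59 CPM (SD, n = 3 each), with a log2 fold change of 0.37 (SE 0.0767, 95% interval 0.20 to 0.53, edgeR adjusted p = 0.00129). With library totals in place of TMM the log2 fold change was 0.20 and the adjusted p rose to 0.0480.

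Il18rap (ENSMUSG00000026068, chromosome 1, 40515362 to 40551705, plus strand), the accessory chain, was among the high members and was not called. It had 3075, 2771 and 3075 counts in PBS and 2640, 3040 and 3513 counts in IL-3 libraries, or 252, 243 and 271 CPM and 261, 253 and 272 CPM, and the groups overlapped. The means were 255 ± 14.3 and 262 ± 9.74 CPM (SD, n = 3 each), with a log2 fold change of 0.04 and a 95% interval of -0.08 to 0.16 (edgeR adjusted p = 0.633). Library totals in place of TMM turned the sign (-0.12, edgeR adjusted p = 0.114). The ratio of Il18r1 to Il18rap per kilobase was 0.278, 0.265 and 0.268 in PBS and 0.339, 0.321 and 0.355 in IL-3 libraries, a difference of 0.32 on the log2 scale without overlap (exact permutation test, two-sided, p = 0.1). In both receptors the ratio of ligand-binding to accessory chain was higher in every IL-3 library than in every PBS library, with a log2 difference of 2.67 for the IL-33 receptor beside 0.32 for the IL-18 receptor. Natural killer cells and T cells also carry the IL-18 receptor. Their 8 markers summed to 4.01 to 4.84 CPM in PBS and 4.05 to 4.65 CPM in IL-3 libraries, and the NK cell receptor gene Ncr1 stood at 0.195 CPM in PBS libraries and 0.327 CPM in IL-3 libraries.

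Per kilobase, Il1rl1 stood at 4.17, 4.64 and 4.67 times Il18r1 in PBS and at 9.04, 11.1 and 9.78 times in IL-3 libraries, a log2 difference of 1.15 (exact permutation test, two-sided, p = 0.1). All 9 members together summed to 667 to 744 CPM in PBS and 1240 to 1407 CPM in IL-3 libraries. Il1rl1 made up 47.1% to 49.3% of this sum in PBS and 69.9% to 73.5% in IL-3, and the share of Il18rap went from between 36.4% and 37.5% to between 19.1% and 21.0%.

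The ligand-binding chains for IL-1 and IL-36 and the IL-1 decoy receptor were low in both groups and were not called. Il1r1 (ENSMUSG00000026072), the signalling receptor for IL-1α and IL-1β, had 27, 11 and 11 counts in PBS and 21, 17 and 29 counts in IL-3 libraries, or 1.38 ± 0.717 and 1.91 ± 0.439 CPM (SD, n = 3 each). PBS replicate 1 was as high as the IL-3 libraries, and the interval of the log2 fold change was -0.32 to 1.23 (estimate 0.45, edgeR adjusted p = 0.364). Without that library the estimate was 0.98 (edgeR adjusted p = 0.0663).

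Il1r2 (ENSMUSG00000026073) encodes a decoy that binds IL-1 without signalling. It had 20, 20 and 13 counts in PBS and 16, 5 and 5 counts in IL-3 libraries, or 1.51 ± 0.323 and 0.795 ± 0.680 CPM (SD, n = 3 each). IL-3 replicate 1 lay within the PBS range and the others below it. The log2 fold change of -0.99 (SE 0.468) had an interval of -1.99 to 0.0015 and was not called (edgeR adjusted p = 0.110). Without IL-3 replicate 1 it was -1.89 and was called (edgeR adjusted p = 0.00807), as it was by limma-voom with all 6 libraries (-1.23, limma adjusted p = 0.0460).

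Il1rl2 (ENSMUSG00000070942), the ligand-binding chain for IL-36, had 65 counts in each PBS library and 87, 84 and 72 counts in IL-3 libraries. This was 5.58 ± 0.228 CPM in PBS libraries and 7.06 ± 1.5 CPM in IL-3 libraries (SD, n = 3 each), and the groups overlapped through IL-3 replicate 3. The log2 fold change was 0.33 with an interval of -0.07 to 0.73 (edgeR adjusted p = 0.191).

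Of the inhibitor genes Sigirr and Il1rn, only Sigirr was called. Sigirr (ENSMUSG00000025494, chromosome 7, 141091175 to 141100572, minus strand) encodes a single-domain receptor known to dampen IL-1 family and Toll-like receptor signalling. It had 119, 109 and 139 counts in PBS and 64, 67 and 52 counts in IL-3 libraries, or 9.74, 9.56 and 12.2 CPM and 6.32, 5.58 and 4.03 CPM. The groups did not overlap, and the mean fell from 10.5 ± 1.5 to 5.31 ± 1.17 CPM (SD, n = 3 each). The log2 fold change was -1.0 (SE 0.186, 95% interval -1.39 to -0.60, edgeR adjusted p = 0.000499). Per kilobase, Il1rl1 stood at 12.2, 12.7 and 11.3 times Sigirr in PBS and at 51.5, 65.7 and 95.5 times in IL-3 libraries, a log2 difference of 2.51 (exact permutation test, two-sided, p = 0.1).

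Il1rn (ENSMUSG00000026981, chromosome 2, 24336853 to 24351494, plus strand) encodes the IL-1 receptor antagonist, a secreted protein that occupies IL1R1 without activating it. It had 116, 116 and 99 counts in PBS and 105, 103 and 95 counts in IL-3 libraries. The levels overlapped at 9.46 ± 0.725 and 8.77 ± 1.51 CPM (SD, n = 3 each), with a log2 fold change of -0.12 and an interval of -0.46 to 0.22 (edgeR adjusted p = 0.607).

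**Figure D3:**
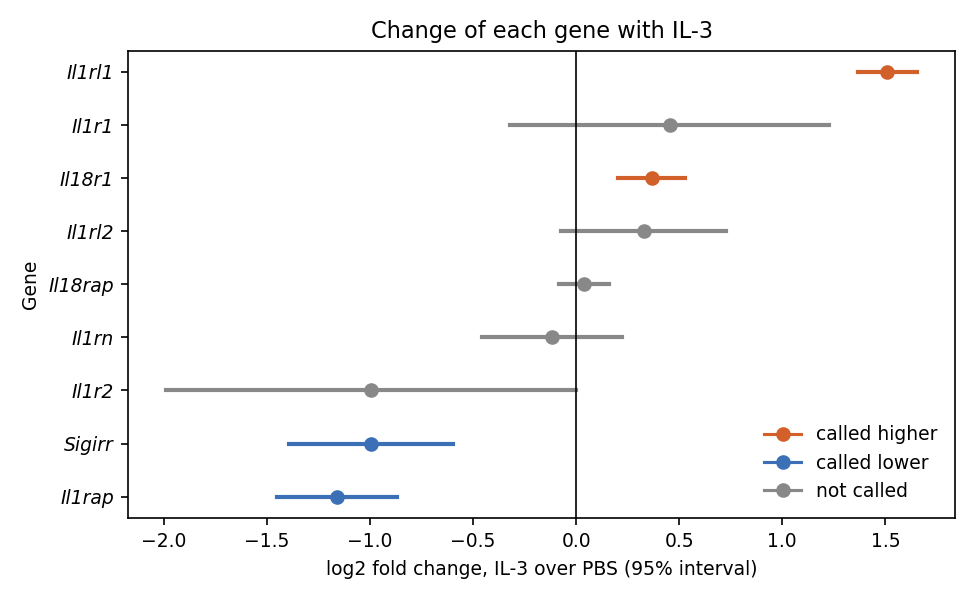
Log2 fold change of IL-3 over PBS with its 95% interval for each of the 9 genes, with called rises in orange, called falls in blue and genes that were not called in grey. Il1rl1 stands at 1.51, Il18r1 at 0.37, Sigirr at -1.0 and Il1rap at -1.16, and the widest interval belongs to Il1r2, from -1.99 to 0.0015.

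The order of the levels separated 3 abundant members from 6 low ones. In CPM per kilobase of longest coding transcript, the PBS means were 63.4 for Il1rl1, 52.2 for Il18rap and 14.1 for Il18r1, and then 5.28 for Sigirr, 3.82 for Il1rn, 3.50 for Il1rap, 1.43 for Il1rl2, 1.07 for Il1r2 and 0.237 for Il1r1. On this scale the PBS ranges of neighbours did not overlap, except those of Il1rn and Il1rap. In the IL-3 libraries the first 3 were again Il1rl1 (180), Il18rap (53.6) and Il18r1 (18.2). They were followed by Il1rn (3.55), Sigirr (2.67), Il1rl2 (1.81), Il1rap (1.57), Il1r2 (0.560) and Il1r1 (0.329). Here the ranges overlapped between Il1rn and Sigirr, Sigirr and Il1rl2, Il1rl2 and Il1rap, and Il1r2 and Il1r1. Per kilobase of all exons joined, the first 3 were the same in both groups, but the ranges of Il1rl2 (0.819) and Il1r2 (0.792) overlapped in PBS while those of Il1rn and Il1rap did not. On that scale Sigirr (1.75) stood above Il1rn (1.58) in the IL-3 libraries with overlapping ranges, so the order among the low members depends on the length used.

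Of the 9 members, 6 lie in a cluster of 478 kb on the plus strand of chromosome 1 (40074079 to 40551705), in the order Il1r2, Il1r1, Il1rl2, Il1rl1, Il18r1 and Il18rap. Il1rl1 ends 136 bases before Il18r1 begins, and Il18rap begins 14507 bases after Il18r1 ends. Along this order the log2 fold changes were -0.99, 0.45, 0.33, 1.51, 0.37 and 0.04, and only Il1rl1 and Il18r1 were called. Within 200 kb of the cluster lie 3 other protein-coding genes. Map4k4, a kinase gene upstream, stood at 134 ± 1.71 CPM in PBS libraries and 117 ± 4.09 CPM in IL-3 libraries (SD, n = 3 each; log2 fold change -0.18, edgeR adjusted p = 0.0163). The sodium-proton exchanger gene Slc9a4 had 7, 42 and 39 counts in PBS and 13, 8 and 9 counts in IL-3 libraries (log2 fold change -1.55, edgeR adjusted p = 0.0295), and its groups overlapped through PBS replicate 1. The call of Slc9a4 was lost by limma-voom (limma adjusted p = 0.168) and without PBS replicate 2, PBS replicate 3, IL-3 replicate 2 or IL-3 replicate 3 (edgeR adjusted p = 0.0891 to 0.143), and that of Map4k4 without IL-3 replicate 2 (edgeR adjusted p = 0.0821). The exchanger gene Slc9a2 had at most 4 counts in any library and was not tested.

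By the distance between patterns (root mean square difference in log2 CPM, each gene relative to its own PBS mean, over the 6 libraries), the genes most like Il1rl1 among 6690 compared were AC160336.1 (0.0312), Slmapos2 (0.0678) and Pfkp (0.0690). The non-coding gene AC160336.1 went from 1720 ± 155 to 4761 ± 374 CPM (log2 fold change 1.47). The antisense gene Slmapos2 went from 52.6 ± 7.74 to 150 ± 7.30 CPM (1.52), and Pfkp, which encodes a phosphofructokinase of glycolysis, from 128 ± 6.39 to 355 ± 7.57 CPM (1.47; SD, n = 3 each). This is a description of 6 libraries in 2 groups, and 651 genes were called higher by more than 2-fold.

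Sequence shared with other genes was small for the members. The share of 50-base stretches also found in transcripts of another symbol was 3.98% for Il1rap, mainly through Gm20319, and 0.320% or less for the other 8.

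The called ligand genes, Il1b and Il1a, were higher, and the gene called lower in their list was the soluble inhibitor gene Il18bp. Of 5 ligand and soluble inhibitor genes tested, 2 were higher (40%, beside 18% of all genes tested) and 1 lower (20%, beside 20.2%), and the median log2 fold change was -0.03. Il1b, which encodes IL-1β, had 121, 78 and 118 counts in PBS and 825, 864 and 953 counts in IL-3 libraries, or 9.04 ± 1.93 and 75.8 ± 5.01 CPM (SD, n = 3 each). The log2 fold change was 3.06 (SE 0.119, edgeR adjusted p = 8.11e-12). Il1a, which encodes IL-1α, rose from 6.39 ± 0.762 to 11.6 ± 1.23 CPM (log2 fold change 0.85, edgeR adjusted p = 0.000425). Both are ligands of IL1R1, whose own gene Il1r1 stood at 1.38 and 1.91 CPM. Il18bp, which encodes a soluble trap of IL-18, stood at 7.46 ± 1.48 CPM in PBS libraries and 5.0 ± 0.829 CPM in IL-3 libraries (log2 fold change -0.59, edgeR adjusted p = 0.0287). Its call was lost by the DESeq2 Wald test (DESeq2 adjusted p = 0.0593) and without PBS replicate 1, PBS replicate 3, IL-3 replicate 2 or IL-3 replicate 3 (edgeR adjusted p = 0.0702 to 0.125). The ligands of the main receptors were scarce, and both were named after their values were seen. Il33 had 0 counts in all 6 libraries, which allows up to 0.296 CPM, and Il18 stood at 1.38 ± 0.422 CPM in PBS libraries and 0.940 ± 0.0559 CPM in IL-3 libraries (log2 fold change -0.54, edgeR adjusted p = 0.261). The neuronal relatives Il1rapl1 and Il1rapl2 were too low to be tested.

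Downstream of the receptors, 8 of 19 tested genes of receptor-proximal signalling were higher (42.1%, beside 18% of all genes tested) and 4 lower (21.1%, beside 20.2%), with a median log2 fold change of 0.16. No test of the list against other genes was made. Myd88, the adaptor of all signalling members, rose from 54.3 to 85.6 CPM (log2 fold change 0.66, edgeR adjusted p = 7.55e-07). Tab2, an adaptor of the kinase TAK1, changed by 0.66 (edgeR adjusted p = 3.60e-07) and Peli1, a ubiquitin ligase that acts on IRAK proteins, by 0.84 (edgeR adjusted p = 4.93e-07) on the log2 scale. The number of lower genes in this list was 2 with the DESeq2 Wald test or without PBS replicate 3, IL-3 replicate 1 or IL-3 replicate 3, and with library totals in place of TMM 6 genes were higher and 7 lower, with a median of -0.0043. Of 12 NF-kB feedback and target genes, 4 were higher (33.3%, beside 18%) and 3 lower (25%, beside 20.2%), with a median of -0.03. Among them Nfkb1, which encodes the NF-kB subunit p50 and its precursor, rose by 1.13 (edgeR adjusted p = 2.00e-08), the inhibitor gene Nfkbie by 0.84 (edgeR adjusted p = 2.31e-05) and the RNase gene Zc3h12a by 0.52 (edgeR adjusted p = 0.000634) on the log2 scale.

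Of 5 tested genes for the processing of IL-1β and IL-18, 1 was higher and 1 lower (20% each, beside 18% and 20.2% of all genes tested), with a median of -0.03. The inflammasome sensor gene Nlrp3 rose by 0.69 (edgeR adjusted p = 4.47e-05) and the adaptor gene Pycard changed by -0.46 (edgeR adjusted p = 9.41e-05) on the log2 scale. The number of lower genes was 2 without PBS replicate 2 and with library totals. Of 9 tested Toll-like receptor genes, most of which signal through the same adaptor, 2 were higher (22.2%, beside 18%) and 4 lower (44.4%, beside 20.2%), with a median of -0.06. Tlr2, a receptor for bacterial lipoproteins, rose by 2.18 (edgeR adjusted p = 3.06e-10), whereas Tlr13 (-1.34, edgeR adjusted p = 3.14e-08) and Tlr7 (-1.33, edgeR adjusted p = 0.000118), both sensors of RNA, were lower. The medians of the short lists were not stable. Without PBS replicate 1 the median was 0.05 for the Toll-like receptors, 0.11 for the processing genes, 0.05 for the NF-kB genes and 0.21 for the ligands. That of the Toll-like receptors was -0.16 without PBS replicate 3, -0.22 with library totals and -1.08 with no low-count filter, and that of the processing genes was -0.13 without PBS replicate 2 and -0.19 with library totals. The ligand median was 0.41 with a filter at 1 CPM in 3 libraries and ranged from -0.50 without IL-3 replicate 2 to 0.26 without IL-3 replicate 3, and that of the NF-kB genes from -0.17 to 0.10 without the same libraries. Like the receptors themselves, each of these lists held genes called higher and genes called lower.

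**Figure D4:**
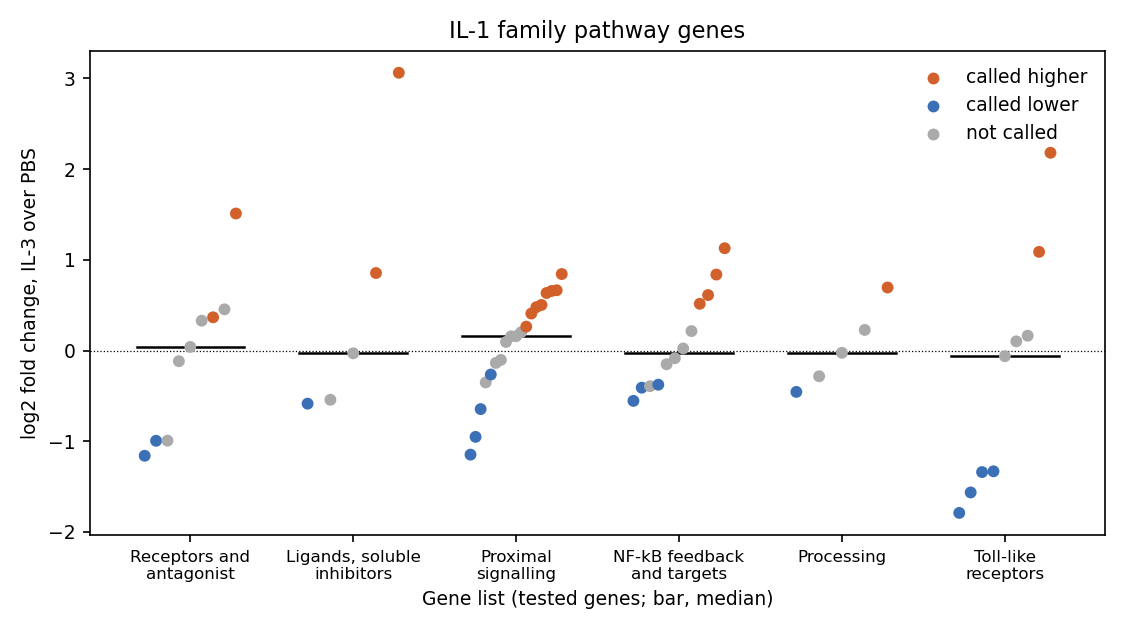
Log2 fold change of IL-3 over PBS for every tested gene of 6 lists (1 point a gene, sorted within the list), with called rises in orange, called falls in blue, genes not called in grey and bars for the medians. The medians run from -0.06 to 0.16, and the highest points are Il1b at 3.06, Tlr2 at 2.18 and Il1rl1 at 1.51.

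Il1rap and the Toll-like receptors are also known in monocytes and macrophages, whose markers were lower in the IL-3 libraries. On the log2 scale the median change of these markers was -1.03 and that of Lyz2 -0.97, beside -1.16 for Il1rap and -1.0 for Sigirr. Eosinophil markers, 3 of 5 tested lower (60%) and 0 higher, summed to 154 to 170 CPM in PBS and 59.4 to 76.9 CPM in IL-3 libraries. Ear2 made up most of this sum (134 CPM in PBS libraries, 51.3 CPM in IL-3 libraries). Epx and Prg3 of the same list were too low to be tested. Neutrophil markers summed to 79.1 to 114 CPM in PBS and 136 to 200 CPM in IL-3 libraries, with 2 higher and 1 lower of 6 tested (33.3% and 16.7%). Their part in the falls of Il1rap and Sigirr, and in the rises of Il1b and Tlr2, was not tested.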

How the data were processed

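Poly(A) RNA of 6 BMBA cultures was sequenced as bulk libraries. The authors deposited raw counts per gene symbol in 1 table. Per the study's methods, cDNA was amplified by the TAS-Seq workflow, and reads were trimmed, mapped with Bowtie2 to reference RNA and counted per gene. Its reporting summary adds that reads were aligned in 1 orientation only and that counts were summed by gene symbol. The submitters' processing notes name cutadapt 3.4 and the build GRCm39, whereas the methods name GRCm38. The labels name an RNA kit and the methods direct lysis. No molecular identifiers are described, so PCR copies counted as reads. Coordinates and lengths here come from GENCODE M21 (GRCm38), in which 96.1% of symbols were found, and promoters from RefSeq.

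For the comparison, edgeR 4.0.16 was run in R 4.3.3 on these counts (filterByExpr, TMM, two-sided quasi-likelihood F test, group as the only term, Benjamini-Hochberg adjustment over 16675 genes, threshold 0.05), as the study's tool, TCC, is built on edgeR. SE was derived from F. The scripts were tested on simulated data with known answers. No pair of libraries agreed within sampling noise (chi-square per degree of freedom of at least 2.75). Alternatives were DESeq2 1.42.0 size factors and Wald test, library totals, iterated TMM, other filters, the edgeR exact test, limma-voom (limma 3.58.1), a replicate block, each library left out and a threshold of 0.01.

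The 9 members and all lists were chosen with earlier results of these data known. Named besides the members were the 3 genes of each pathway list with the smallest adjusted p among called genes, the protein-coding genes within 200 kb of the chromosome 1 cluster and the 3 genes closest to Il1rl1 in pattern among those with a mean of at least 20 CPM. Markers named were chosen after their values were seen. No per-sample column was left unused.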

Additional observations from a re-analysis of the deposited data

How the results depend on the processing

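The 4 called members kept their direction and their call under all 15 alternatives run for single genes. Il1rl1 ranged from 1.35 to 1.58, Il1rap from -1.32 to -1.11, Il18r1 from 0.20 to 0.42 and Sigirr from -1.16 to -0.82 on the log2 scale. Library totals in place of TMM lowered the log2 fold changes of all genes by a median of 0.16, gave 1698 genes higher in place of 3003 (25.2% of calls in place of 47.1%) and turned Il18rap to -0.12. By its construction that setting leaves out the composition factors. For Il1r2, limma-voom gave -1.23, and leaving out each library gave -1.89 to -0.64. The cause was not tested. No pairing by replicate number was seen, as the deviations of same-numbered libraries correlated at -0.0129, -0.0151 and -0.0149. These values cannot tell whether same-numbered libraries shared a source. With a replicate block, 2842 genes were higher and 3247 lower, Il1rl1 stood at 1.51, and 2 members were called in each direction. The block took the call from Slc9a4 (-1.44, edgeR adjusted p = 0.0613) and changed no call of a member. Depth limits Il1r1 and Il1r2, which had 29 or fewer counts in every library.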
